A study of Drosophila melanogaster with 12 samples.

Results

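The transcripts described here were higher than in mock-treated cells at the first and at the last harvest after knockdown of Rad21 or Nipped-B in Drosophila BG3 cells. They are the probe sets whose log2 ratio to mock, averaged over both knockdowns, was 0.8 or more at day 3 and again at day 6. Values under log2 4 were set to 4 before the ratio was taken, so that probe sets without signal give a ratio of 0. They were selected on the measured ratios of these days, and the rule takes 107 of 18769 probe sets (0.570%), where 183 control probe sets are not counted. Of the 107 probe sets, 93 name 1 gene (84 genes), 3 name several genes and 11 name none. At day 3 167 probe sets reached the limit, and the 107 are 64.1% of them. At day 6 424 did, of which the 107 are 25.2%. The other 60 were raised at day 3 only and the other 317 at day 6 only.

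BG3 (ML-DmBG3) cells are a cultured line derived from the central nervous system. Total RNA was measured on 12 Affymetrix Drosophila Genome 2.0 arrays, 4 for each of mock RNAi, Rad21 RNAi and Nipped-B RNAi. In every treatment 2 arrays are labelled as biological replicates of day 3, and days 4 and 6 have 1 array each. The dose of double-stranded RNA (dsRNA) was 0 µg for mock cells. For either knockdown it was 40 µg a well in the day 3 cultures and 10 µg in the later ones, so the amount of dsRNA and the day of harvest cannot be told apart. The mock cells were given no control dsRNA, so a response to dsRNA as such cannot be told apart from the knockdown. The arrays do not check the knockdowns, since the Nipped-B probe set is at background (a mean of 2.28 in mock cells) and Rad21 was not analysed here. The expression values are log2 values on which probe sets without signal lie near 2.

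Cohesin is a ring-shaped protein complex that holds sister chromatids together from replication until anaphase, and Rad21 is the subunit that closes the ring. Nipped-B loads the ring onto chromosomes. In flies both bind many active genes, and lowering their dose changes transcription of developmental genes.

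The 107 probe sets had a median mock level of 7.32, with a range from 2.31 to 12.84, against 9.37 over the 7350 probe sets tested. Testing was limited to probe sets with a log2 value of 4 or more on 2 or more of the arrays. All of the 107 passed this filter, as the rule itself requires signal in knockdown cells. E(spl)mdelta-HLH and the unnamed probe set 1640274_at were under log2 4 on all 4 mock arrays, and 10 others were under it on some. Their ratios understate the difference from mock. The median of the tested probe sets lay between 9.33 and 9.41 on every array, and between 7199 and 7261 probe sets per array reached log2 4. The pairs of day 3 arrays differed over the 107 probe sets by a median of 0.17 for mock cells, 0.12 after Rad21 knockdown and 0.21 after Nipped-B knockdown. For any transcript in a culture, more RNA per cell and more cells that make it cannot be told apart.

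Across the 107 probe sets the ratio to mock was 1.12 at day 3 in the median (0.80 to 3.44), 1.47 at day 4 (0.43 to 5.08) and 1.74 at day 6 (0.81 to 5.94). The values of days 3 and 6 chose the probe sets and are a description only. The ratio grew at each step in 59 probe sets and shrank at each step in 6. It was highest at day 4 in 20 and lowest at day 4 in 22. In 32 probe sets it was higher by 1 or more at day 6 than at day 3, and in 50 it stayed within 0.5. Only CG9628 was lower by more than 0.5 at day 6. With Rad21 RNAi the median was 1.40 at day 3, 1.55 at day 4 and 1.78 at day 6. With Nipped-B RNAi it was 0.89, 1.25 and 1.81 on the same days.

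**Figure D1:**
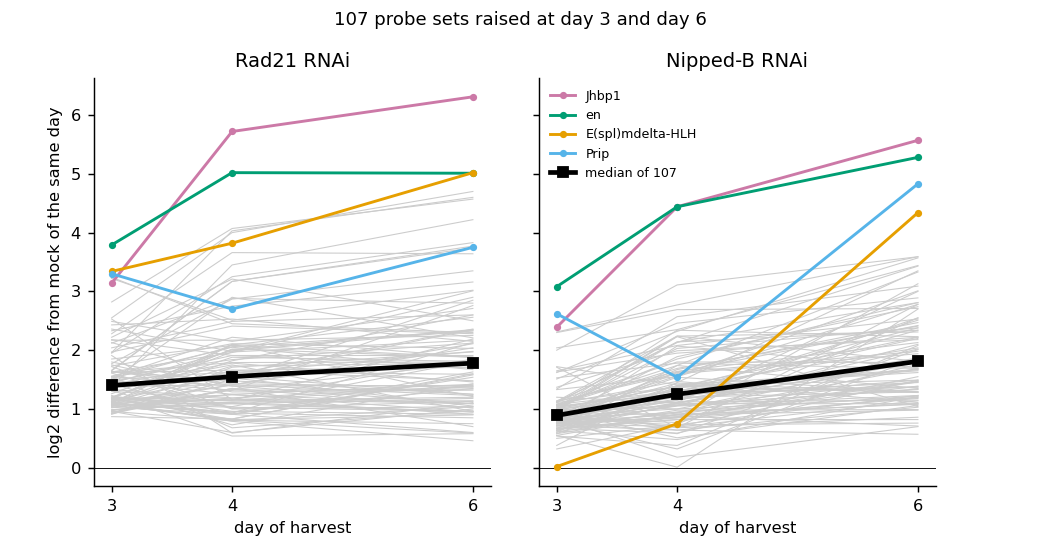
Log2 difference from the mock array of the same day (y axis, values under log2 4 set to 4) by day of harvest (x axis) for the 107 probe sets, in grey, after Rad21 RNAi (left) and Nipped-B RNAi (right), with 4 genes in colour and the median in black. Day 3 points are means of 2 arrays and the others are single arrays. The median rises from 1.40 to 1.78 with Rad21 RNAi and from 0.89 to 1.81 with Nipped-B RNAi.

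A ratio that is kept high does not always stand for a level that is kept high, because the mock cells changed over the same days. From day 3 to day 6 the median mock level of the 107 probe sets changed by -0.20, against -0.09 over all tested probe sets, and 15 probe sets were lower by 1 or more and 8 higher by 1 or more in mock cells. With Rad21 RNAi the level changed by 0.05 in the median, and with Nipped-B RNAi by 0.68. Idgf2, a secreted growth factor of the chitinase family, is the clearest case. Its mock levels were 6.78 and 6.82 at day 3, 3.78 at day 4 and 2.55 at day 6. With Rad21 RNAi they were 8.95, 9.10, 7.21 and 6.50, and with Nipped-B RNAi 7.55, 7.99, 6.23 and 5.04. Its level fell in all 3 treatments and stayed above mock of the same day throughout.

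The day 4 arrays took no part in the rule and test whether the difference is also there between the harvests. At day 4 all 107 probe sets were above mock with each knockdown, and 103 passed as raised in limma (adjusted p of at most 0.1, Benjamini-Hochberg over all tested probe sets), where 23.6% of all tested probe sets were raised. None was lowered, against 20.8% of all tested, and none was lower at an unadjusted p under 0.05. The median difference of the 107 was 1.47 against 0.04 over all tested. Each treatment has 1 array at day 4, so the error comes from the pairs of day 3 arrays, and both knockdowns share the same mock array. Taken alone, Rad21 RNAi raised 102 of the 107 (20.9% of all tested) and Nipped-B RNAi 95 (19.6%). The 4 that did not pass were Nepl19, a neprilysin-like peptidase (0.43, adjusted p = 0.282 in limma), 1 of the 3 probe sets of RapGAP1 (1640847_at, 1.03, adjusted p = 0.222), and the unnamed 1637182_at (1.54, adjusted p = 0.177) and 1629839_a_at (0.73, adjusted p = 0.165). For 1637182_at the day 3 arrays disagreed, at 6.10 and 4.84 with Rad21 RNAi and at 6.11 and 4.46 with Nipped-B RNAi.

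At day 4 the ratio was still 0.8 or more in 98 of the 107 (91.6%), which is the case for 4.16% of the tested probe sets. Among the probe sets raised at day 6 only it was 115 of 317 (36.3%), and among those raised at day 3 only 18 of 60 (30.0%). The median day 4 ratio was 0.65 in the former and 0.59 in the latter. These shares are descriptions, since the sets were cut by ratios on other days, and no difference between them was tested. Near the limit of the rule the sets run into each other. Naglu (0.804), CG3246 (0.808) and RapGAP1 (1624122_a_at, 0.814) lay just inside at day 3, and CG3097 (0.797), CG6357 (0.772) and CG10663 (0.770) just outside. At day 6 vari (0.814), regucalcin (1629430_s_at, 0.829) and Nepl19 (0.835) lay just inside, and 1625719_at (0.797), dati (0.790) and 1622908_a_at (0.788) just outside.

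**Figure D2:**
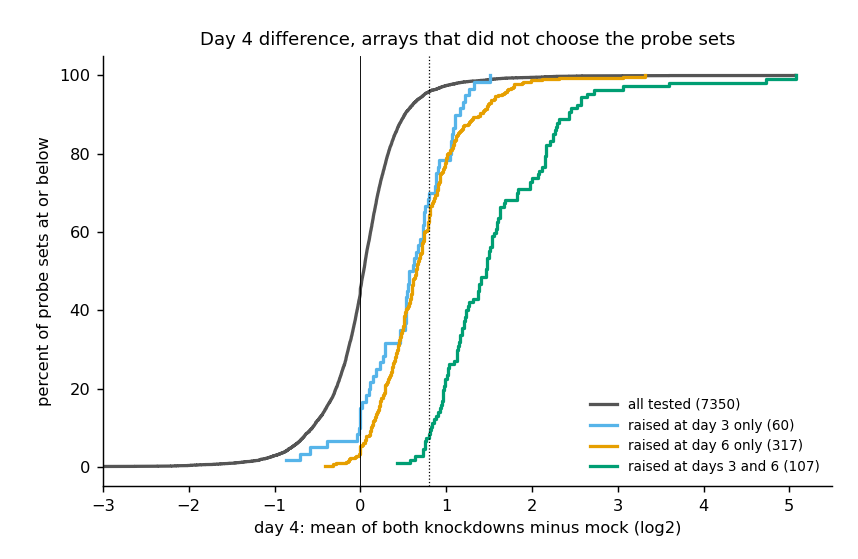
Cumulative share of probe sets (y axis, percent) at or below a given day 4 difference of both knockdowns from mock (x axis, log2, values under 4 set to 4) for the 107 probe sets raised at days 3 and 6, the 317 raised at day 6 only, the 60 raised at day 3 only and all 7350 tested. The dotted line is at 0.8. The curve of the 107 lies to the right of the others, with a median of 1.47 against 0.65, 0.59 and 0.04.

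Regulators of gene expression among the 107 were en, inv, E(spl)mdelta-HLH and orb2. This group and the other role groups were formed after the values were known, and their ratios are descriptions. As 96.3% of the 107 were raised at day 4, nothing is read from how many of a role group were. Engrailed and Invected, homeodomain proteins made by a pair of neighbouring genes on 2R with no other protein-coding gene between them, set the identity of posterior compartments. The en probe set read 4.34, 4.64, 4.31 and 4.20 on the mock arrays of replicates 1 to 4, 8.22, 8.34, 9.33 and 9.20 with Rad21 RNAi, and 7.31, 7.84, 8.76 and 9.47 with Nipped-B RNAi. The lowest knockdown array was far above the highest mock array. At day 4 en was raised by 4.73 ± 0.24 (SE, limma, adjusted p = 0.000514). The inv probe set read 4.98, 5.12, 5.07 and 4.84 in mock, 7.82, 7.91, 9.15 and 9.40 with Rad21 RNAi, and 6.88, 7.23, 8.19 and 8.42 with Nipped-B RNAi. It was raised by 3.59 ± 0.17 at day 4 (adjusted p = 0.000501 in limma), again with no overlap between mock and knockdown arrays. The ratios of en and inv to mock at day 6 were 35.3-fold and 16.9-fold. On a list of homeobox genes 4 of 8 tested genes were raised at day 4 (23.6% of all tested probe sets were), which are en, inv, C15 and Lim1, and pdm2 was the only one lowered (20.8% of all tested). The median day 4 difference of the list was 0.45, against 0.04 over all tested. These list values include en and inv, which the rule chose for being raised, and only 8 of the 46 genes measured were tested.

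E(spl)mdelta-HLH encodes a basic helix-loop-helix repressor of the Enhancer of split complex, whose genes are direct targets of Notch. Its mock arrays were at or near background, at 3.39, 3.80, 2.66 and 2.40. With Rad21 RNAi it read 7.47, 7.22, 7.82 and 9.02. With Nipped-B RNAi it read 4.04 and 3.84 at day 3, 4.75 at day 4 and 8.34 at day 6. It therefore met the day 3 limit through Rad21 RNAi alone, with a ratio of 3.34 against 0.02 for Nipped-B RNAi. At day 4 it was raised by 3.63 ± 0.22 on the values as deposited (adjusted p = 0.000653 in limma), or by 2.29 with values under 4 set to 4. The value was 2.10 without Rad21 replicate 3, and the call was lost when both knockdowns were taken as 1 group (adjusted p = 0.131 in limma). Of the 5 tested genes of the complex 4 were raised at day 4 (23.6% of all tested) and none lowered (20.8% of all tested), with a list median of 1.99, and the other 3 that rose were not among the transcripts described here. E(spl)m7-HLH (3.07, adjusted p = 0.00116 in limma) and E(spl)mbeta-HLH (1.59, adjusted p = 0.00173 in limma) had day 3 ratios of 0.33 and 0.44. E(spl)m3-HLH (1.99, adjusted p = 0.000526 in limma) had a day 3 ratio of -0.93, below mock. The count for the complex includes E(spl)mdelta-HLH, which the rule chose for being raised, and only 5 of the 10 genes measured were tested.

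orb2 encodes a CPEB-type RNA-binding protein that controls local translation in neurons. Its mock levels lay between 4.72 and 5.43. With Rad21 RNAi it read 7.48, 7.12, 8.75 and 9.58, and with Nipped-B RNAi 5.86, 6.35, 5.57 and 8.10. Every knockdown array was above every mock array, and the Nipped-B arrays of days 3 and 4 were the lowest of them. It was raised by 2.44 ± 0.25 at day 4 (adjusted p = 0.00199 in limma). Without Rad21 replicate 3 the value was 0.85 (adjusted p = 0.0806 in limma), without Nipped-B replicate 3 it was 4.03, and with both knockdowns as 1 group the call was lost (adjusted p = 0.138 in limma). Of 8 tested genes on a list of neural RNA-binding proteins 7 were raised at day 4 (23.6% of all tested) and none lowered (20.8% of all tested), with a list median of 0.75, and orb2 was the only one among the 107. mub had the next largest difference of the list at 1.10 (adjusted p = 0.00124 in limma).

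Genes that bind, break down, make or carry insect hormones formed a further group, with median ratios of 1.28, 2.15 and 3.22 on the 3 days. Jhbp1, a member of the juvenile hormone binding protein family, had the largest day 4 difference of all. Its mock levels were 6.48, 6.54, 4.95 and 3.88, so mock cells lost the transcript over time. With Rad21 RNAi it read 9.55, 9.75, 10.67 and 10.31, and with Nipped-B RNAi 8.71, 9.08, 9.39 and 9.57. It was raised by 5.08 ± 0.17 at day 4 (adjusted p = 0.00025 in limma), which is 33.7-fold. Jhe encodes the esterase that inactivates juvenile hormone. It read 6.29, 6.95, 3.28 and 2.63 in mock, 8.27, 8.28, 7.17 and 7.74 with Rad21 RNAi, and 6.97, 7.36, 4.01 and 6.70 with Nipped-B RNAi. These values overlap, since the Nipped-B array of day 4 lay below both mock arrays of day 3. Its day 4 difference was 2.32 ± 0.30 (adjusted p = 0.00339 in limma), or 1.59 with values under 4 set to 4. Without Rad21 replicate 3 it was 0.74 and did not pass (adjusted p = 0.165 in limma), without Nipped-B replicate 3 it was 3.90, and with both knockdowns as 1 group it did not pass (adjusted p = 0.14 in limma).

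shd encodes the cytochrome P450 that converts ecdysone to its active form, and Oatp74D encodes the importer that brings ecdysone into cells. Both probe sets of shd were raised at day 4, by 2.28 ± 0.18 (1638040_at, adjusted p = 0.00116 in limma) and by 2.73 ± 0.30 (1635002_at, adjusted p = 0.00225 in limma). The former read 7.49, 7.90, 6.86 and 7.68 in mock, 9.24, 9.22, 9.09 and 9.57 with Rad21 RNAi, and 8.62, 8.81, 9.21 and 9.91 with Nipped-B RNAi, without overlap. Oatp74D changed less, by 0.98 ± 0.09 (adjusted p = 0.00167 in limma), and kept a nearly even ratio of 0.90, 0.98 and 1.20 on the 3 days. Of 11 tested genes on a list of ecdysone synthesis and response 7 were raised at day 4 (23.6% of all tested) and none lowered (20.8% of all tested), with a list median of 0.61. The receptor genes EcR (0.97, adjusted p = 0.00164 in limma) and usp (0.33, adjusted p = 0.0147 in limma) were among those that rose, though not among the 107. Of 4 tested genes on the juvenile hormone list 3 were raised (23.6% of all tested), with a list median of 1.34, which are Jhbp1, Jhe and Jheh2, an epoxide hydrolase. Jheh2 rose by 0.31. The counts of both lists include shd, Jhbp1 and Jhe, which the rule chose for being raised. Of the genes measured, 11 of 22 on the ecdysone list and 4 of 9 on the juvenile hormone list were tested.

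**Figure D3:**
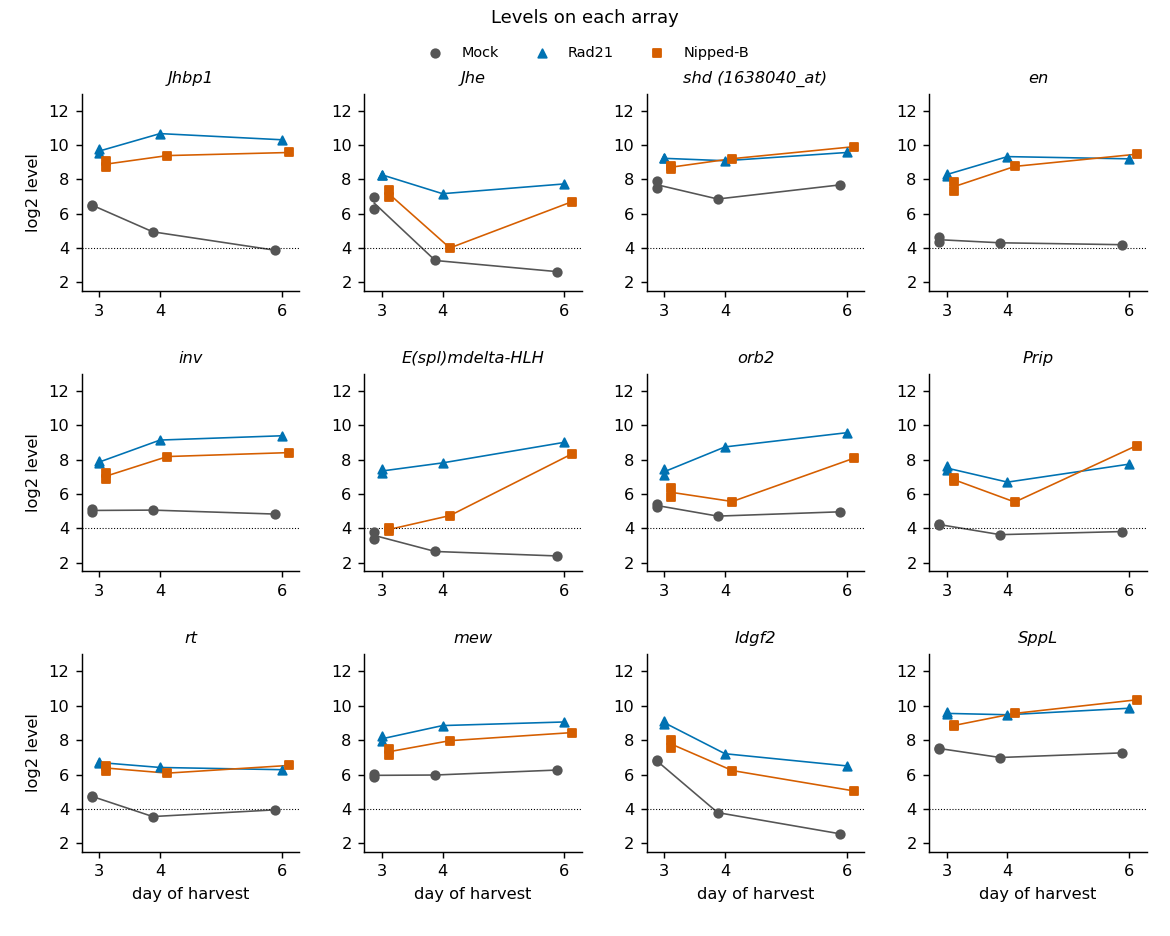
Log2 level (y axis) on each of the 12 arrays by day of harvest (x axis) for 12 genes, with mock as grey circles, Rad21 RNAi as blue triangles and Nipped-B RNAi as orange squares. Lines join the day 3 mean with the single arrays of days 4 and 6, the dotted line marks log2 4, and symbols are shifted sideways to keep them apart. Mock levels of en, inv and mew stay within 0.5 over the days, whereas those of Jhbp1, Jhe and Idgf2 fall.

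Proteins of the cell surface, matrix and junctions made up 15 probe sets of 12 genes, with median ratios of 1.20, 1.46 and 1.92. All 15 were raised at day 4 (96.3% of the 107). mew encodes an alpha subunit of integrin, the receptor for basement membrane. It read 6.03, 5.87, 5.97 and 6.26 in mock, 8.22, 7.93, 8.85 and 9.06 with Rad21 RNAi and 7.14, 7.51, 7.97 and 8.44 with Nipped-B RNAi, without overlap. It was raised by 2.44 ± 0.20 at day 4 (adjusted p = 0.0012 in limma). A further tested mew probe set, 1634290_a_at, with a mean of 2.8 in mock cells, had ratios of 0.03, 0.36 and 0.77. The alpha subunit genes if and scb went down at day 4, if by 1.57 (adjusted p = 0.00354 in limma) and scb by 0.86 (adjusted p = 0.00118 in limma). With values under 4 set to 4, the ratio of if was -1.81 at day 3, -1.01 at day 4 and 0.00 at day 6. A ratio of 0.00 can come from values under 4 in all treatments. That of scb was -0.94 at day 3 and -0.95 at day 6. On the list of integrins and basement membrane, where each gene stands for its probe set with the highest mean, 2 of 12 were raised (23.6% of all tested), mew and SPARC, and if and scb were the 2 lowered (20.8% of all tested). The list median was 0.12.

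rt, Dg and trol were named together after their values were seen, and a link between them was not tested. rt encodes an O-mannosyltransferase that modifies dystroglycan, the product of Dg, and trol encodes perlecan, a heparan sulfate proteoglycan of basement membranes. rt was raised by 2.69 ± 0.17 at day 4 (adjusted p = 0.000653 in limma), or by 2.24 with values under 4 set to 4, and its ratio was 1.81 at day 3 and 2.40 at day 6. Its mock levels of 4.77, 4.69, 3.55 and 3.94 lay below every knockdown array, the lowest of which was 6.08. Dg went up by 1.38 ± 0.25 (adjusted p = 0.00979 in limma). Its ratio was 0.82 at day 3 and 2.25 at day 6. tw, the other gene on the list of O-mannosylation, was at background (a mean of 1.97 in mock cells) and was not tested.

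The probe sets of trol did not move alike. The 3 among the 107 had day 4 differences of 1.37 (1625116_at, adjusted p = 0.0276 in limma), 0.83 (1640223_a_at, adjusted p = 0.0252 in limma) and 0.81 (1640189_at, adjusted p = 0.0905 in limma), and the last lost its call without any 1 of Rad21 replicates 1 to 3 and Nipped-B replicates 1 and 2 (adjusted p from 0.106 to 0.278). The brightest trol probe set, 1641442_a_at, had ratios of 0.56, 0.43 and 0.53 and did not pass at day 4 (adjusted p = 0.138 in limma), and 1628566_at had ratios of -0.08, -0.23 and -0.44. Over all genes with a probe set among the 107, 35 further probe sets belong to 20 of them. Only 16 of these were tested, and 13 of the 16 had ratios above 0 on all 3 days. The 3 other tested probe sets of CG42342, a gene of unknown role, had day 3 ratios from 0.38 to 0.46, under the limit, and day 6 ratios from 2.10 to 3.64.

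ogre and Inx3 encode innexins, the proteins that form gap junctions in insects. ogre read 9.48, 9.47, 9.82 and 9.92 in mock, 11.20, 11.29, 12.69 and 13.27 with Rad21 RNAi, and 10.35, 10.43, 11.38 and 12.94 with Nipped-B RNAi. Its ratio grew from 1.34 to 2.21 and 3.18, and the day 4 difference had an SE of 0.07 (adjusted p = 0.00025 in limma). Inx3 kept a nearly even ratio of 1.34, 1.46 and 1.58 (adjusted p = 0.00085 in limma at day 4). Of the 4 innexins tested, a list made after the values were seen, 3 were raised at day 4 (23.6% of all tested), and the third was Inx2 (1.43, adjusted p = 0.00118 in limma), which missed the day 3 limit with a ratio of 0.75. zpg, the germline innexin, was 0.38 lower (adjusted p = 0.0326 in limma). The innexin count includes ogre and Inx3, which the rule chose for being raised. Septate junction genes were also present, bbg with ratios of 1.00, 1.69 and 2.53 and vari with 1.15, 1.03 and 0.81. Fili, scaf, Ptp99A and TM4SF complete the group.

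**Figure D4:**
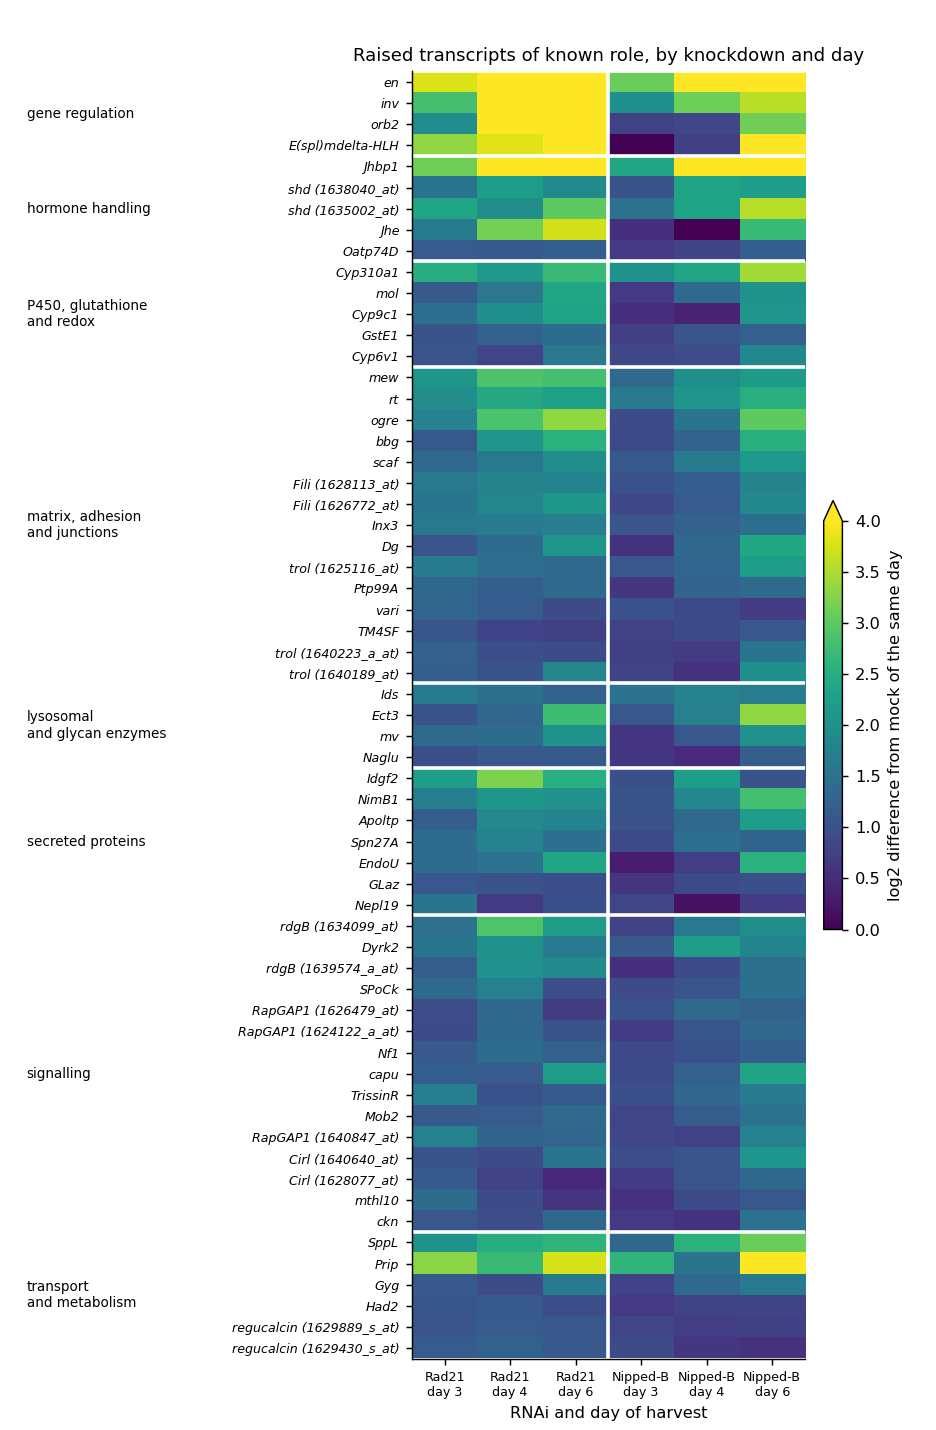
Log2 difference from the mock array of the same day (colour, values under log2 4 set to 4, scale ending at 4.0) for the probe sets of the role groups (rows) in each knockdown and day (columns). Day 3 columns are means of 2 arrays. Large differences lie in the top rows, with en, inv, orb2, E(spl)mdelta-HLH and Jhbp1, and in the row of Prip in the last group. The Nipped-B day 3 column is darker than the Rad21 day 3 column in most rows.

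Enzymes formed smaller groups. Cyp310a1, Cyp9c1 and Cyp6v1 are cytochrome P450 genes, GstE1 is a glutathione transferase and mol encodes a maturation factor of dual oxidase. Their median ratio was 0.96 at day 3 and 2.20 at day 6, and all 5 were raised at day 4 (96.3% of the 107). Cyp310a1 was the strongest, from 9.56 to 10.54 in mock and from 12.27 to 13.04 in knockdown cells, with a day 4 difference of 2.25 ± 0.13 (adjusted p = 0.000619 in limma). Their families as a whole did not go the same way. These 3 were the only raised members of the 14 tested cytochrome P450 genes with a numbered Cyp symbol, a share near that of all tested probe sets (23.6%), and 6 were lowered (20.8% of all tested). Of 22 tested glutathione transferase genes 4 were raised (23.6% of all tested) and 12 lowered (20.8% of all tested) at day 4, with a family median of -0.41. GstE1 went up by 1.15 (adjusted p = 0.00118 in limma), while GstE9 went down by 2.14 (adjusted p = 0.0216 in limma) and GstE6 by 1.38 (adjusted p = 0.00227 in limma).

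Lysosomal enzymes of glycan breakdown were Ids (iduronate sulfatase), Naglu (an N-acetylglucosaminidase) and Ect3 (a beta-galactosidase), with mv, a regulator of lysosome-related organelles, in the same group. All 4 were raised at day 4 (96.3% of the 107), Naglu by 0.80, or by 0.48 without Rad21 replicate 3. Ids had the steadiest ratio of 1.59, 1.63 and 1.47, whereas Ect3 went from 1.05 and 1.53 to 3.05. The mock level of Ect3 fell from 10.48 and 10.12 at day 3 to 8.56 at day 6, and its knockdown arrays all lay between 11.07 and 11.89. Its growing ratio thus came with a falling mock level. On a list of glycan degradation chosen after the values were seen, 4 of 6 tested genes were raised (23.6% of all tested) and Sgsh was lowered by 0.85 (adjusted p = 0.0375 in limma). The count includes Ids, Naglu and Ect3, which the rule chose for being raised.

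Of the 7 secreted proteins 6 were raised at day 4 (96.3% of the 107) and Nepl19 did not pass. Idgf2 had a day 4 difference of 2.93 ± 0.20 (adjusted p = 0.00085 in limma), or 2.72 with values under 4 set to 4. NimB1, of the Nimrod family found in haemocytes, had 1.98 ± 0.13 (adjusted p = 0.00085 in limma). Apoltp, a lipoprotein, Spn27A, a serpin that restrains the Toll pathway and melanization, EndoU, an endoribonuclease, and GLaz, a lipocalin, had day 4 ratios from 0.96 to 1.63. Signalling genes held 15 probe sets, 14 of them raised at day 4 (96.3% of the 107). The 11 genes had ratios of 1.00, 1.18 and 1.42 in the median over these probe sets. They include Nf1, the neurofibromin that restrains Ras, RapGAP1, which restrains Rap, the latrophilin Cirl, the neuropeptide receptor TrissinR, the kinase Dyrk2 and the lipid transfer protein rdgB.

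Prip, an aquaporin, and SppL, a signal peptide peptidase-like protease, stood out among the transport and metabolic genes. Prip read 4.27, 4.19, 3.64 and 3.82 in mock, 7.64, 7.41, 6.70 and 7.75 with Rad21 RNAi, and 6.94, 6.75, 5.54 and 8.83 with Nipped-B RNAi. Its arrays did not overlap with mock, and its ratio of 2.96 at day 3 dipped to 2.12 at day 4 before 4.29 at day 6. It lies near inv on 2R, with a pair of protein-coding genes, qvr and E(Pc), between them. SppL read between 6.99 and 7.52 in mock and between 8.85 and 10.35 in knockdown cells, and was raised by 2.53 ± 0.09 at day 4 (adjusted p = 0.00025 in limma). Gyg (glycogenin) and Had2 (a hydroxyacyl-CoA dehydrogenase), had day 4 ratios of 1.13 and 0.96. regucalcin, a calcium-binding protein, was the brightest, with mock levels from 12.58 to 13.21 (1629889_s_at) and an even ratio of 0.95, 0.95 and 0.93.

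The largest group, 46 probe sets, has no role assigned here, and 44 of them were raised at day 4 (96.3% of the 107). CG32181 and CG32182 are neighbours on 3L with no protein-coding gene between them, and had day 4 differences of 2.64 ± 0.21 and 1.59 ± 0.09 (adjusted p = 0.00118 and 0.000619 in limma). hng3 was raised by 2.32 ± 0.13 (adjusted p = 0.000557 in limma) and CG42342 by 2.45 ± 0.33 (adjusted p = 0.00414 in limma), or by 1.45 without Rad21 replicate 3. CG9628 is the neighbour of shd and went the other way in time. It read 7.55, 7.15, 7.24 and 6.79 in mock, 9.36, 9.16, 7.83 and 7.90 with Rad21 RNAi and 9.19, 8.93, 7.92 and 7.64 with Nipped-B RNAi. Its ratio was 1.81 at day 3, 0.63 at day 4 (adjusted p = 0.0575 in limma, or 0.11 without Nipped-B replicate 3) and 0.98 at day 6. CG5455, CG2201 and CG13124 were the other named genes at the low end of day 4, from 0.73 to 0.75, and all passed, though CG2201 did not with both knockdowns as 1 group (adjusted p = 0.117 in limma). By chromosome, 25.0% of the 84 genes lie on 2R, 22.6% on 2L, 20.2% on each of 3L and 3R and 11.9% on X, against 20.3%, 17.9%, 19.3%, 24.3% and 17.3% of the tested genes. These shares were not tested.

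Over all days, the 8 knockdown arrays of 80 of the 107 probe sets lay above all 4 mock arrays, which held for 8.59% of the tested probe sets. The rule used the arrays of days 3 and 6, so nothing is read from this count.

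The rule used the mean of both knockdowns, on the same arrays of days 3 and 6 that a comparison of the knockdowns on those days would use. Of the 107, 46 would not have been taken if each knockdown had been held to 0.8. At day 3, 39 were under 0.8 with Nipped-B RNAi and 0 with Rad21 RNAi, and the former reached the limit through Rad21 RNAi. At day 6, 4 were under it with Nipped-B RNAi and 6 with Rad21 RNAi. The differences between the knockdowns on days 3 and 6 are therefore a description with no test, and the day 4 arrays, which took no part in the rule, carry the test. This test was chosen after the values were seen. As the 39 were taken through Rad21 RNAi, which knockdown is higher at day 4 is not free of the rule either.

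At day 4, 72 of the 107 were higher with Rad21 than with Nipped-B RNAi (47% of all tested), by 0.27 in the median against -0.01 over all tested. In limma 20 passed as higher (1.70% of all tested), and CG10962 passed as lower (-0.93, adjusted p = 0.0947 in limma, 1.40% of all tested). orb2 was 3.18 ± 0.29 higher (adjusted p = 0.0143 in limma), Jhe 3.16 ± 0.34 (adjusted p = 0.0205) and E(spl)mdelta-HLH 3.07 ± 0.26 (adjusted p = 0.0127). Each knockdown has 1 array at day 4, and the error comes from the pairs of day 3 arrays. At day 3 the Nipped-B ratios of orb2, Jhe and E(spl)mdelta-HLH were 0.77, 0.55 and 0.02, under the limit of 0.8. These genes were taken through Rad21 RNAi, so their direction at day 4, and the counts above, are not free of the rule. ogre was 1.31 ± 0.08 higher (adjusted p = 0.00491 in limma). For en the difference of 0.57 ± 0.28 did not pass (adjusted p = 0.395 in limma).

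Averaged over the time classes (day 3, and days 4 and 6), a comparison that includes the arrays of the rule, 2 of the 107 were higher with Rad21 than with Nipped-B RNAi in limma at an adjusted p of at most 0.1, where 0.0408% of all tested were. They were inv, by 0.89 ± 0.12 (adjusted p = 0.0479), which was above the limit of the rule with each knockdown, and the unnamed 1640112_at, by 0.75 ± 0.11 (adjusted p = 0.0924), whose Nipped-B ratio of 0.77 at day 3 was under it. None was lower, against 0.0544% of all tested. At an unadjusted p under 0.05 44 were higher and none lower, and the difference was positive in 95 of the 107 (44.7% of all tested). The rule leaned towards Rad21 RNAi at day 3, where 39 were under the limit with Nipped-B RNAi and 0 with Rad21 RNAi. Nothing is therefore read from these counts or from those that follow. With the replicate number as a block 25 were higher. The count was 28 without Nipped-B replicate 4, the day 6 array, 3 without mock replicate 3 or 4, 1 without Nipped-B replicate 2 or 3, and 0 without any 1 of mock replicates 1 and 2, Nipped-B replicate 1 and the 4 Rad21 arrays.

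As a description of the other days, 105 of the 107 were higher with Rad21 RNAi at day 3 (50% of all tested), by 0.47 in the median. At day 6, 46 were higher (44.5% of all tested), which is near the share of all tested, and the median was -0.12. The change of the difference from day 3 to day 6 was negative in 100 of the 107 (54.8% of all tested), with a median of -0.51 against -0.03. At the threshold used for day 4, 39 of the 107 would count as higher with Rad21 RNAi at day 3 (1.62% of all tested) and 1 at day 6 (0.136% of all tested), and 7 would count as lower in the change (0.259% of all tested), and nothing is read from these counts. At day 3 Rad21 RNAi gave the higher value in 220 of the 317 probe sets raised at day 6 only (69.4%) and in 55 of the 60 raised at day 3 only (91.7%), against 98.1% of the 107. Expressed as a fold from mock, Rad21 RNAi put 97 of the 107 at 2-fold or higher at day 3 (2.22% of all tested) and Nipped-B RNAi 37 (0.803% of all tested). At day 4 the counts were 87 (3.37% of all tested) and 72 (2.33% of all tested), and at day 6 they were 91 (3.32% of all tested) and 99 (3.95% of all tested). The day 3 cells received 40 µg of dsRNA and the later ones 10 µg, so the day and the dose cannot be told apart, and the extent of either knockdown was not measured on the arrays.

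**Figure D5:**
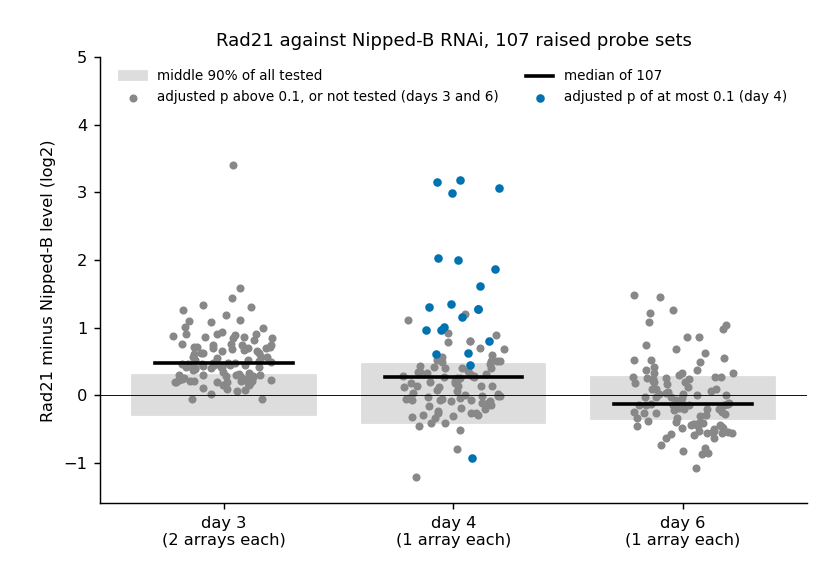
Rad21 minus Nipped-B level (y axis, log2) of the 107 probe sets at each day (x axis, points spread sideways), with the median as a black bar and the middle 90% of all tested probe sets as a grey band. Blue points passed in limma at day 4 (adjusted p of at most 0.1), and days 3 and 6, whose arrays chose the probe sets, carry no test. The median is 0.47 at day 3, 0.27 at day 4 and -0.12 at day 6.

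Among markers of the cell types that a line of this origin could hold, genes that define differentiated neurons (nSyb, brp, para, ChAT, VGlut and Gad1) did not reach the filter, and elav (a mean of 8.38 in mock) and cac were the only 2 of 11 neuronal markers tested. Both were raised at day 4 (23.6% of all tested), elav by 0.66 and cac by 0.60, though cac had a ratio of 0.00 with values under 4 set to 4. The summed linear level of the neuronal list was 278 to 628 in mock, 482 to 712 with Rad21 RNAi and 351 to 787 with Nipped-B RNAi. Of 7 glial markers 5 were tested, with repo at 4.61 in mock. At day 4 nrv2 was raised (23.6% of all tested) and wrapper lowered (20.8% of all tested). The summed glial level was 12830 to 15370 in mock, 14850 to 15850 with Rad21 RNAi and 14360 to 17700 with Nipped-B RNAi. Of 13 haemocyte markers 6 were tested. Among them srp and ush were raised (23.6% of all tested), eater was lowered by 3.10 (20.8% of all tested), and Pxn, crq and Sr-CI did not pass. Hml, NimC1, He, lz, PPO1, PPO2 and Nplp2 were not above the filter. The summed haemocyte level was 11270 to 14550 in mock, 15370 to 18930 with Rad21 RNAi and 15030 to 19140 with Nipped-B RNAi. srp and ush, with means of 12.81 and 11.51 in mock, were the brightest of the list. The rise of the sum was thus not shared by the list as a whole, and its part in the results was not tested. None of the genes on these lists was among the 107.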

How the data were processed

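Per the labels and the study's methods, the deposited log2 values come from GCRMA, which the authors ran in R (background adjustment with probe GC content, then quantile normalization). No version of GCRMA is given in the labels, headers or methods used. Precision is limited by the number of arrays, which carry no read depth. The members and lists were chosen with earlier results of these data known, and the limit of 0.8 was set on the same arrays. Of 18952 probe sets 183 controls were left out. Names came from the array annotation and a RefSeq gene table of Release 6, which gives 1 gene to 13647 probe sets, several to 402 and none to 4720. Of the coordinates only the order of neighbouring genes was used. Sequences were not used here.

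Tests used limma 3.58.1 in R 4.3.3 (lmFit, eBayes with a trend, Benjamini-Hochberg over 7350 probe sets at log2 4 or more on at least 2 arrays, adjusted p of at most 0.1, the study's threshold). Day 4 was tested with 9 means (3 treatments on 3 days) and 3 residual degrees of freedom. Rad21 against Nipped-B was tested with 6 means (3 treatments in the classes day 3 and days 4 and 6), after the study's balanced analysis of the same factors. The test script was tested on simulated data. Arrays of replicate 3 and of replicate 4 share a day by their labels, and the day 3 arrays of replicates 1 and 2 deviated together between treatments (correlations across probe sets of 0.498, 0.502 and 0.364), so the number was taken to pair arrays and also fitted as a block. Tables and figures were made with pandas 2.3.3 and matplotlib 3.10.9 in Python 3.11.15.

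Named genes are, among probe sets of 1 gene, the 15 with the highest and the 5 with the lowest day 4 difference, members of the 33 lists, those largest in the Rad21 against Nipped-B test, and the 3 inside and 3 outside each limit. Others were named for a role, a gene family or a neighbour after their values were seen, as were 3 added lists and the role groups. Each list gene stands for its probe set with the highest mean. Alternatives were no filter or a filter at log2 5, floored values, no variance trend, centred arrays, a threshold of 0.05, both knockdowns as 1 group, other limits of the rule, single days, each knockdown alone at day 4, and leaving out arrays in turn.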

Additional observations from a re-analysis of the deposited data

Results flagged for a closer look

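The effect of Rad21 RNAi differed from that of Nipped-B RNAi at day 4, whose arrays did not choose the probe sets, in 10 named probe sets by a test of that difference in limma. All 10, of 29 named probe sets, were higher with Rad21 RNAi, with 1 array per knockdown and the error from the day 3 pairs. Of all tested probe sets 1.70% were higher and 1.40% lower. CG10962, which is among the 107 but not among the named probe sets, was lower (-0.93). The log2 difference was 3.18 for orb2, 3.16 for Jhe, 3.07 for E(spl)mdelta-HLH and 2.00 for CG42342. It was 1.28 for Jhbp1, 1.16 for Prip, 1.00 for CG3246 and 0.96 for inv. For Naglu it was 0.63 and for regucalcin (1629430_s_at) 0.61. At day 3, orb2, Jhe, E(spl)mdelta-HLH, CG42342, CG3246 and Naglu were under the limit of 0.8 with Nipped-B RNAi (0.02 to 0.77). They reached it through Rad21 RNAi, so their direction at day 4 is not free of the rule. The adjusted p lay between 0.0127 (E(spl)mdelta-HLH and CG3246) and 0.0965 (inv).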

How the results depend on the processing

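The day 4 test raised 103 of the 107 probe sets, and between 94 and 107 under every alternative run. The lowest count came with both knockdowns taken as 1 group, and the highest, 107, with the replicate number as a block. Leaving out arrays gave 95 to 104, while the mock array of day 4 could not be left out. Of the 103, 13 lost their call under at least 1 of the alternatives chosen at the outset. For all tested probe sets the count raised was 1732 and ran from 1337 to 2141, and leaving out arrays gave 1416 to 1835. Rad21 against Nipped-B gave 2 of the 107, 25 with the replicate block, 39 at day 3 alone and 1 at day 6 alone (days whose arrays chose the probe sets), 20 at day 4 alone, 1 at a threshold of 0.05, 1 without a variance trend, and 0 to 28 when arrays were left out in turn. The rule gave 107 probe sets, 205 with a limit of 0.6, 62 with a limit of 1 and 61 where each knockdown had to reach 0.8, and leaving out arrays gave 107 to 118. No called direction was reversed among the results recomputed. In the comparison of the knockdowns the sign turned without a call in 37 recomputed values of 14 genes, 15 of them at day 6 alone, such as en (0.43 to -0.27) and Prip (0.36 to -1.08), and 7 each at day 4 alone and without Nipped-B replicate 3. For the named probe sets, 502 of the recomputed day 4 results kept their side of the threshold, 19 lost the call and 1 gained it. In the comparison of the knockdowns 590 kept their side, 39 gained a call and 9 lost it, 9 of the last being for inv.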
